A study of Mus musculus with 8 samples.

Results

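Of the immunity-related GTPases (IRG) and guanylate-binding proteins (GBP), 8 genes were chosen from the 12393 that had a probe set of their own: Igtp, Irgm1, Irgm2, Iigp1, Ifi47, Gbp2, Gbp2b and Gbp3. Other family genes with a probe set of their own are given further on. Every probe set annotated to only 1 of these genes was taken, which gave 10 probe sets, with a pair each for Iigp1 and Gbp2. Both families are large GTPases that are made in quantity after interferon and gather on the membranes of vacuoles that hold parasites or bacteria. Among the IRG proteins, Igtp, Irgm1 and Irgm2 sit on host membranes and keep the effector proteins, such as Iigp1 and Ifi47, from acting there, while the effectors coat and break pathogen vacuoles. GBP proteins bind to such vacuoles and to bacteria in the cytosol and help inflammasomes to respond. Interferon-gamma is their best known inducer and is known to act through GAS motifs, and type I interferon is known to act through ISRE motifs.

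RNA was measured in mouse embryonic fibroblasts of strain C57BL/6 x 129Ola on 8 one-colour Affymetrix arrays. The cells were wild type (WT), Tbk1-/-, Ikbke-/- or Tbk1-/- Ikbke-/-, and each genotype was studied after mock transfection and after 4 h of B-DNA, the synthetic double-stranded DNA poly(dA-dT)-poly(dT-dA). The products of Tbk1 and Ikbke are kinases of 1 family that phosphorylate interferon regulatory factors, and the design asks whether either is needed for the response to DNA. Each combination had 1 array, and whether embryos or cultures were pooled is not given in the sources used here, so no single pair has a replicate check. The tests of the response are set against 1 residual degree of freedom, moderated across probe sets. That residual is what separate Tbk1 and Ikbke effects on the response leave over. It holds any joint effect of both kinases as well as array-to-array spread that may be technical, so p-values do not measure spread between replicates.

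The arrays were brought to a common 2% trimmed mean of 500 from deposited means of 140 to 255. Values under a floor of 122, the 40th percentile of all scaled signals, were raised to it before ratios were formed, so the fold over a floored signal is written "at least". A pair was counted as 2-fold changed only where the higher value also reached 244. Tbk1, measured with 1460315_s_at, read 501 and 989 on the WT mock and B-DNA arrays, 472 and 910.0 in the Ikbke-/- pair, 226 and 305 in Tbk1-/- cells and 290.0 and 390 in the pair without either kinase, and Ikbke was under the floor on all 8 arrays. Where either gene was disrupted relative to the probes is not given in the sources used here. Xist (1436936_s_at) was 2950.1 to 3766 on the 4 arrays with Ikbke and 138 to 209 on the 4 without it, so Ikbke genotype and embryo sex cannot be told apart. The fibroblast markers were at 244 or more for 9 or 10 of 10 on each array. Of 18 macrophage and leukocyte markers, 13 reached 244 on the WT mock array (summed signal 21173), 11 on the WT B-DNA array (5958) and 1 or 2 on the other arrays (1499 to 1891). Endothelial and epithelial markers reached 244 for 0 or 1 of 5 each on every array.

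Upstream sequence is shown first for the members whose RefSeq window (GRCm38.p6, 250 bases before to 50 after the gene start) held a match to an interferon motif, since all of them responded together. Each window was searched on both strands for the ISRE core, GAAA repeated after any 2 bases (TTTC repeated likewise on the other strand), and for the palindromic GAS core, TTCNNNGAA. Capitals mark the matches, and each line runs 5′ to 3′ on the gene's own strand. The printed bases are Igtp at chr11:58199456-58199555 (plus strand), Irgm2 at chr11:58214877-58214976 (plus), Irgm1 at chr11:48871421-48871520 (minus), Gbp2 at chr3:142620563-142620662 (plus), Gbp2b at chr3:142594687-142594786 (plus) and Gbp3 at chr3:142559944-142560043 (plus). They cover the 100 bases before the start, except for Gbp2b, where they cover bases 160 to 61 before it.
Igtp: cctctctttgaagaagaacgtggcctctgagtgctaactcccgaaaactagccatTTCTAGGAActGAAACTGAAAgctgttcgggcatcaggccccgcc
Irgm2: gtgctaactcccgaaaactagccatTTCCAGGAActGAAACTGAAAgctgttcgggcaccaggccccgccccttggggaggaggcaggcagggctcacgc
Irgm1: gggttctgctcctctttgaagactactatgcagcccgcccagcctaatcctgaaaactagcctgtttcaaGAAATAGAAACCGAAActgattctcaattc
Gbp2: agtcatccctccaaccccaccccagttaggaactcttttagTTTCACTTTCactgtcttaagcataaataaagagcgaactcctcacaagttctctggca
Gbp2b: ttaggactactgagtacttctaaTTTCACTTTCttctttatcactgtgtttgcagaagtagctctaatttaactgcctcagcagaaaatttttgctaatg
Gbp3: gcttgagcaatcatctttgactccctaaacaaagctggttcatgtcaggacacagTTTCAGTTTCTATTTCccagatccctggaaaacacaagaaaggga

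An ISRE core lay in 6 of the 7 member genes in the table, against 3.44% of all 32851 windows, and a GAS core in 2 of 7, against 8.30%. Members were counted by gene, with a match in any window, while the shares of all are by window, for 27025 genes. Ifi47 matched neither motif in its window, and the window of Iigp1 was not analysed here. Igtp and Irgm2 carried the same arrangement, a GAS core followed after 2 bases by an ISRE core, starting 45 bases before the start in Igtp and 75 in Irgm2. That composite, searched on both strands, lay in 5 windows of the table (0.0152%), those of Igtp, Irgm2, Tgtp1, Tgtp2 and Gm12185. Aligned on it without gaps, the Igtp and Irgm2 stretches were identical at 68 of 70 bases. Irgm1 held 2 ISRE matches that overlap, starting 30 and 24 bases before the start. In the GBP genes the ISRE core ran on the opposite strand, beginning 59 bases before the start in Gbp2, 137 in Gbp2b and, as an overlapping pair, 45 and 39 in Gbp3. A second Gbp3 window in the table held no match. These are matches of letters, and binding was not measured.

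**Figure D1:**
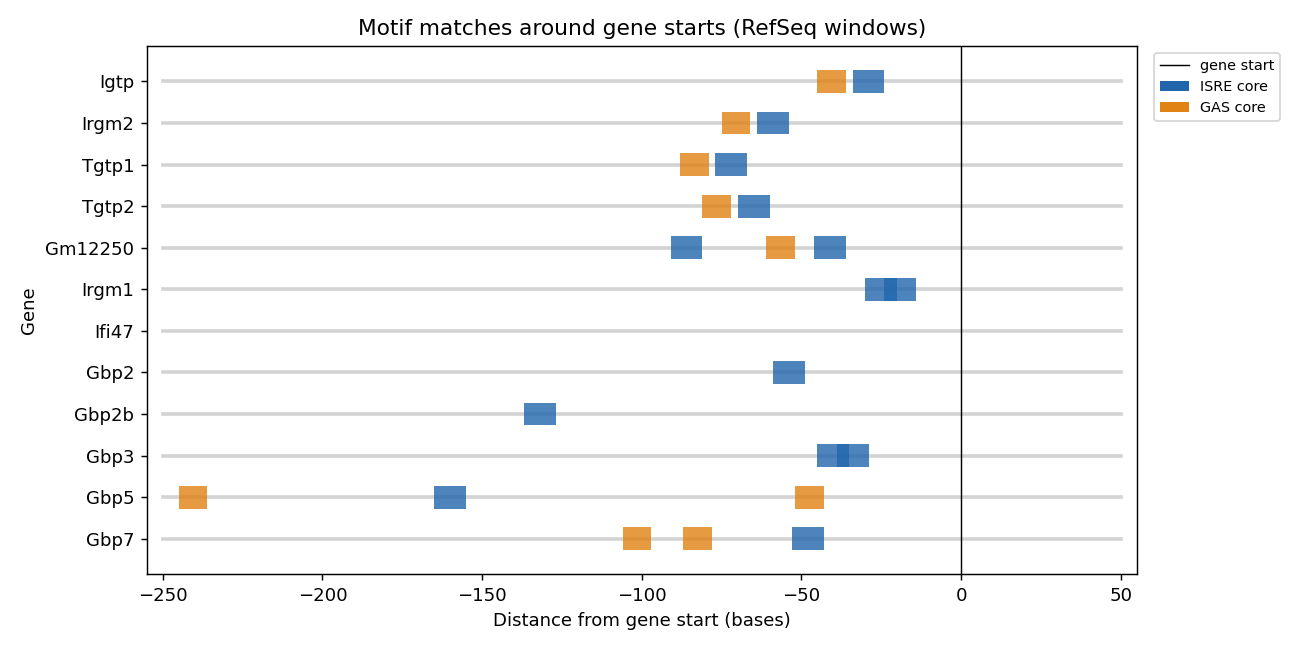
Matches to the ISRE core (blue) and the GAS core (orange) by distance in bases from the gene start, for 12 IRG and GBP genes of the RefSeq table. The GAS core sits directly before the ISRE core in Igtp, Irgm2, Tgtp1 and Tgtp2, and Ifi47 has neither.

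All 8 genes were high after B-DNA in the cells that had Tbk1, WT and Ikbke-/-, and low on the other 6 arrays. In bulk RNA, more responding cells and more RNA per cell cannot be told apart. The regulatory IRG genes are given first. Igtp (1417141_at), which is needed against Toxoplasma, read 225 on the mock and 9830.4 on the B-DNA array of WT cells, 271 and 14114 in the Ikbke-/- pair, 127 and 168 in the Tbk1-/- pair and 335 and 265 in the pair without either kinase. The B-DNA over mock ratio was 43.7-fold in WT and 52.1-fold in the Ikbke-/- pair, on a probe set above the floor on all 8 arrays. The B-DNA arrays of the 2 genotypes with Tbk1 stood far above the rest, with no overlap.

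Irgm1 (1418825_at), which also acts in defence against mycobacteria and in autophagy, was also well measured without stimulation. It read 519.8 and 5939.8 in the WT pair, 436 and 9103 in the Ikbke-/- pair, 629 and 781 in the Tbk1-/- pair and 733 and 436 in the pair without either kinase, and reached 244 on all 8 arrays. Its ratio was 11.4-fold in WT and 20.9-fold in the Ikbke-/- pair, the smallest of the 10 probe sets in WT cells. Irgm2 (1417793_at) read 70.8 and 4618 in the WT pair, 134 and 6589.9 in the Ikbke-/- pair, 17.3 and 17.1 in the Tbk1-/- pair and 123 and 140.0 in the pair without either kinase. Both were high on the same 2 arrays only, and the Irgm2 ratio was at least 37.8-fold in WT and 49.0-fold in Ikbke-/- cells.

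The effector Iigp1, which loads early onto the Toxoplasma vacuole, was measured with a pair of probe sets. With 1419043_a_at it read 272 and 11596 in the WT pair, 163 and 10549.8 in the Ikbke-/- pair, 171 and 121 in the Tbk1-/- pair and 241 and 192 in the pair without either kinase. With 1419042_at it read 46.9 and 2399, 22.3 and 2875, 23.7 and 41.2, and 65.8 and 4.40 in the same order, at or above the floor only on the 2 high arrays. The ratios were 42.6-fold in WT and 64.9-fold in Ikbke-/- cells with the first, and at least 19.6-fold and at least 23.5-fold with the second. The log2 ratios of the pair thus differed by 1.12 in WT and 1.46 in the Ikbke-/- pair, where the floor limits the lower one.

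Ifi47 (1417292_at), an effector of the same class, read 102 and 4132 in the WT pair, 77.9 and 4772 in the Ikbke-/- pair, 111 and 166 in the Tbk1-/- pair and 456 and 245 in the pair without either kinase. Its ratio was at least 33.8-fold in WT and at least 39.1-fold in Ikbke-/- cells. The Tbk1-/- Ikbke-/- mock array was the highest of the 6 low arrays for Ifi47, and the lower of the 2 high arrays still stood 9.07-fold above it.

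Among the GBP genes, Gbp2 (1418240_at), which restricts Toxoplasma, read 393 and 13360.4 in the WT pair, 171 and 13755 in the Ikbke-/- pair, 276 and 307 in the Tbk1-/- pair and 97.6 and 128 in the pair without either kinase. The ratio was 34.0-fold in WT and 80.5-fold in Ikbke-/- cells. With 1435906_x_at, whose suffix marks probes that can bind related transcripts, Gbp2 read 178 and 3255, 87.4 and 6251, 117 and 117, and 51.1 and 72.2 in that order, which is 18.2-fold in WT and at least 51.2-fold in Ikbke-/- cells. Both probe sets were high on the same 2 arrays.

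Gbp2b (1420549_at), the mouse gene that used to be named Gbp1, read 247 and 7636 in the WT pair, 108 and 6958 in the Ikbke-/- pair, 51.4 and 47.8 in the Tbk1-/- pair and 171 and 186 in the pair without either kinase. Gbp3 (1418392_a_at) read 85.5 and 1999 in the WT pair, 84.3 and 3407 in the Ikbke-/- pair, 24.7 and 42.1 in the Tbk1-/- pair and 80.8 and 90.1 in the pair without either kinase. The WT ratio was 30.9-fold for Gbp2b and at least 16.4-fold for Gbp3, and in Ikbke-/- cells it was at least 57.0-fold and at least 27.9-fold. Gbp3 was at or above the floor only on the 2 high arrays.

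**Figure D2:**
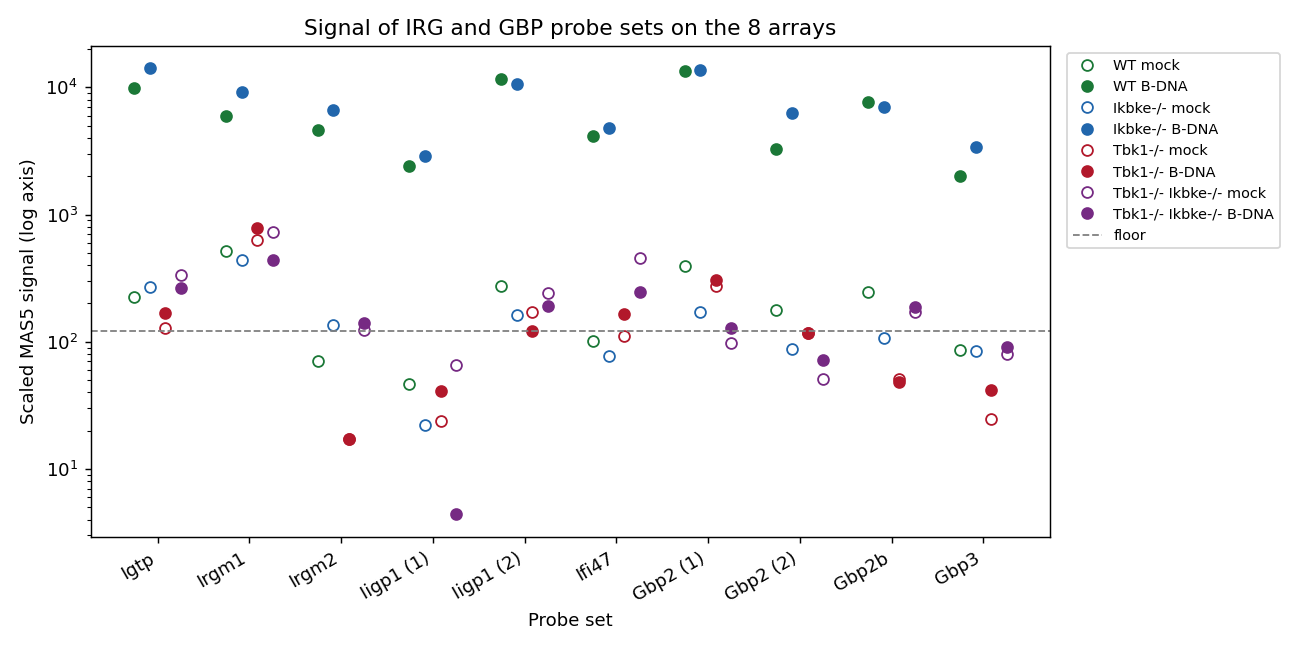
Scaled MAS5 signal (log axis) of each of the 10 probe sets on the 8 arrays, with open circles for mock, filled circles for B-DNA, a colour for each genotype, and the floor of 122 as a dashed line; (1) and (2) are 1419042_at and 1419043_a_at for Iigp1 and 1418240_at and 1435906_x_at for Gbp2. The filled WT and Ikbke-/- points stand above all 6 other arrays for each of the 10.

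Counted by pair, 10 of 10 probe sets were 2-fold or more higher after B-DNA in the WT pair, where 3.04% of the 16406 probe sets that reached the floor on 1 or more arrays were. In Ikbke-/- cells it was also 10 of 10, against 3.22%. The count was 0 of 10 in Tbk1-/- cells (0.311%) and 0 of 10 in Tbk1-/- Ikbke-/- cells (0.652%). All 10 reached the floor, but Iigp1 with 1419042_at and Gbp3 did so only on the 2 high arrays. The median log2 ratio of the 10 was 5.01 in WT, 5.65 in Ikbke-/-, 0 in Tbk1-/- and 0 in Tbk1-/- Ikbke-/- cells. The medians of 0 rest on the floor, since both values were under it for 5 of 10 in Tbk1-/- and 3 of 10 in Tbk1-/- Ikbke-/- cells. Both B-DNA arrays with Tbk1 exceeded all 6 other arrays for 10 of 10, against 5.82% of all probe sets, and the lower of the 2 stood from 7.60-fold (Irgm1) to 38.7-fold (Iigp1, 1419043_a_at) above the highest of the 6. The macrophage and leukocyte markers summed to 21173 and 5958 on the WT mock and B-DNA arrays and to 1499 and 1673 on those of the Ikbke-/- pair, and their part in the member ratios was not tested.

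**Figure D3:**
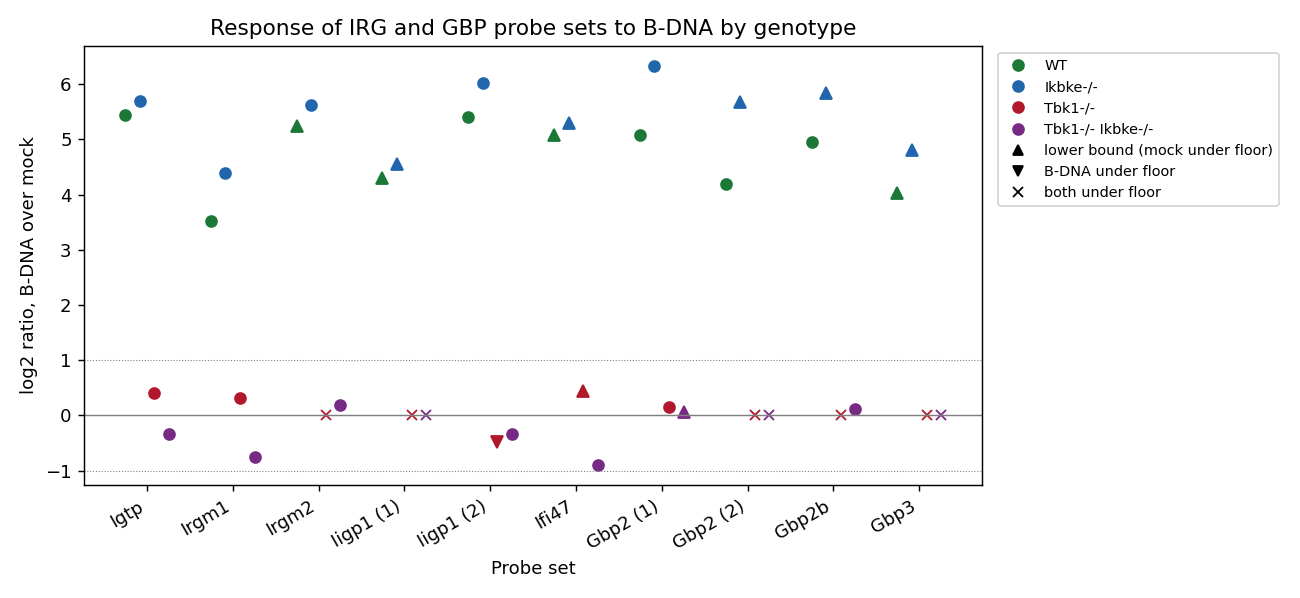
Log2 ratio of the B-DNA over the mock array in each genotype for the 10 probe sets, with upward triangles for lower bounds, downward triangles where the B-DNA value was under the floor, crosses where both were, and dotted lines at 2-fold. WT and Ikbke-/- points lie between 3.51 and 6.33, and points of both genotypes without Tbk1 between -0.89 and 0.45.

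Whether the response depended on Tbk1 was tested with limma over all 16406 probe sets, in a model that held genotype as a block and let the treatment effect vary with each kinase. In the 2 genotypes with Tbk1 together, all 10 probe sets rose (log2 differences of 3.95 to 5.72, limma adjusted p from 3.60e-05 to 0.00109), against 3.03% of all. Of these, Iigp1 (1419042_at) and Gbp3 reached the floor only on the 2 B-DNA arrays with Tbk1, so they had to rise. Over all probe sets 497 rose and 189 fell, and with no further scaling of the arrays 343 rose and 956 fell, while the 10 still rose. The mean log2 response in cells with Tbk1 was 5.58 ± 0.21 (SE) for Igtp and 3.95 ± 0.31 for Irgm1. Without Tbk1, 0 of 10 changed by limma, as did 0 of all 16406, and at an unadjusted p under 0.05 there were 0 of 10 and 1163 of all. Among the 10, Iigp1 (1419042_at), Gbp2 (1435906_x_at) and Gbp3 were under the floor on all arrays without Tbk1, so they could not change. Iigp1 (1419043_a_at) had the lowest p of the 10 there, with a log2 difference of -0.41 and a limma adjusted p of 0.709.

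The difference itself, the Tbk1-/- minus the Tbk1+/+ response, was negative and passed for 10 of 10, against 1.51% of all probe sets, with a median of -5.33 on the log2 scale against 0.04 over all. By limma it was -5.55 ± 0.30 (SE, adjusted p = 0.000545) for Igtp, -4.17 ± 0.44 (adjusted p = 0.0072) for Irgm1 and -5.33 ± 0.24 (adjusted p = 0.000325) for Irgm2. For the effectors, limma gave -6.12 ± 0.25 (adjusted p = 0.00028) for Iigp1 with 1419043_a_at, -4.43 ± 0.24 with 1419042_at, and -5.41 ± 0.38 (adjusted p = 0.00145) for Ifi47. For the GBP genes it was -5.60 ± 0.35 and -4.93 ± 0.37 for the Gbp2 pair, -5.33 ± 0.28 for Gbp2b and -4.42 ± 0.28 for Gbp3. Igtp and Irgm1 were measured above the floor on every array, while for the other 8 probe sets 1 or more floored values enter the difference and its error. Iigp1 (1419042_at) and Gbp3 had all 6 low values set to the floor and passed the filter only through the 2 high arrays, so they had to differ, and their differences are limited by the floor. The fit had 1 residual degree of freedom, and in a model without the Ikbke interaction that left out any 1 of the 4 genotype pairs (WT, Tbk1-/-, Ikbke-/- or Tbk1-/- Ikbke-/-) 0 of 10 passed (limma adjusted p from 0.267 to 0.502, log2 differences from -6.43 to -3.64); with no filter on low probe sets 0 of 10 passed either (adjusted p from 0.271 to 0.524). Under these settings 0 of all probe sets passed, for the response with Tbk1 as well, so the calls of every gene named here end with them.

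**Figure D4:**
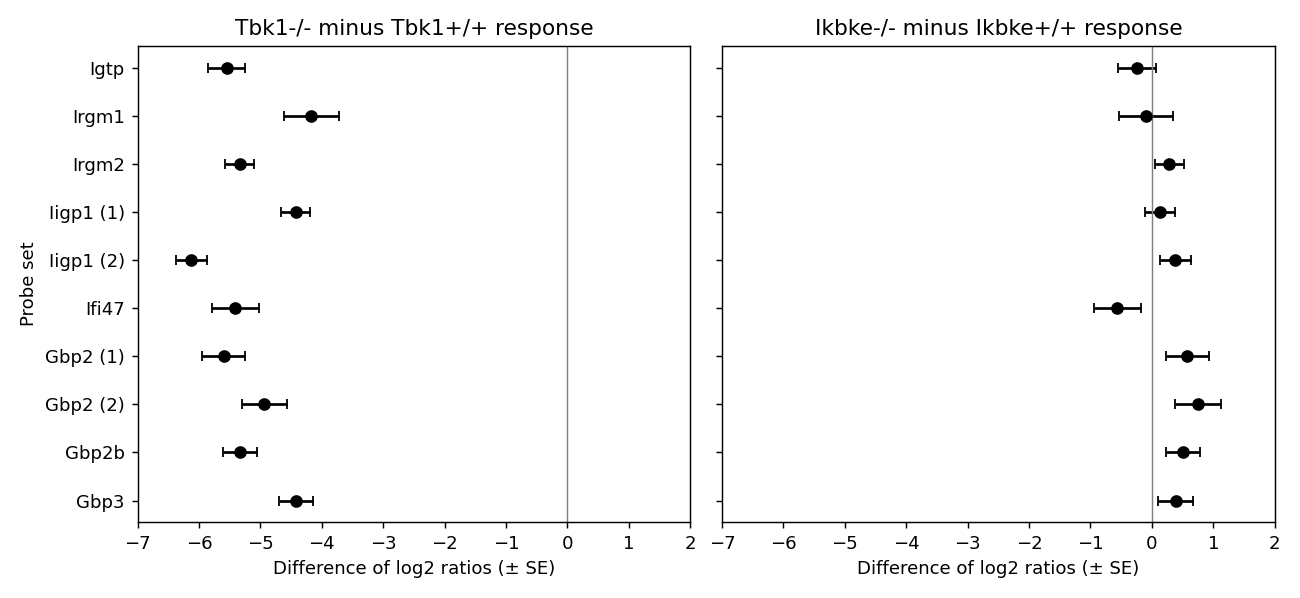
Difference in the log2 response to B-DNA between cells without and with Tbk1 (left) and between cells without and with Ikbke (right), as limma estimates with SE bars for the 10 probe sets. Each is averaged over cells with and without the other kinase. On the left all points lie between -6.12 and -4.17, and on the right between -0.57 and 0.74.

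The response without Ikbke did not differ past the threshold from that with it for any of the 10 probe sets (limma adjusted p from 0.973 to 0.999), as for 0 of all 16406, with 0 of 10 and 792 of all at an unadjusted p under 0.05. Each estimate averages the Ikbke difference in cells with Tbk1 and in cells without it, where no member was 2-fold higher. For Iigp1 (1419042_at), Gbp2 (1435906_x_at) and Gbp3 all values without Tbk1 were set to the floor. The estimate for these was thus as large as the residual it was set against, and the test could hardly pass. The estimates ran from -0.57 for Ifi47 to 0.74 for Gbp2 (1435906_x_at), with 95% intervals reaching from -1.48 for Ifi47 to 1.64 for Gbp2. Averaged differences within that span cannot be told from none here. The intervals do not bound the difference between the Ikbke-/- and the WT pair alone. As a description with no test, the log2 ratio of floored values was higher in the Ikbke-/- than in the WT pair for 10 of 10, by 0.21 to 1.49, and so it was for 76.3% of the 342 probe sets that were 2-fold higher in both pairs. The WT ratio is only a lower bound for Irgm2, Ifi47, Gbp3 and Iigp1 (1419042_at), so the order of the ratios is not settled for these, and for Irgm2 it rests on the floor, since the Ikbke-/- mock value was above it and the WT one below. The median excess of floored values was 0.69 in the 10 and 0.29 in the 342. Signals on the Ikbke-/- B-DNA array were 0.91 to 1.92 times those on the WT B-DNA array and higher for 8 of 10, against 71.1% of the 342.

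Gbp2b and Iigp1 (1419043_a_at) had lower B-DNA signals in Ikbke-/- than in WT cells, with log2 differences of -0.13 and -0.14, so their higher ratios came from lower mock signals, and for Gbp2 (1418240_at) the B-DNA difference was 0.04. The Ikbke-/- minus WT mock difference was -1.20 on the log2 scale for Gbp2 (1418240_at), -1.02 or lower for Gbp2b, where the Ikbke-/- value was under the floor, and -0.74 for Iigp1 (1419043_a_at). The WT mock array was the highest of the 6 low arrays for these and for the other Gbp2 probe set, and it was also the array with 13 of 18 macrophage markers at 244 or more, whose part in these levels was not tested. Mock levels with and without Tbk1 were compared by limma for the 8 probe sets that reached the floor on a mock array. None of the 8 passed (differences from -0.50 for Gbp2 to 0.95 for Ifi47, limma adjusted p of 1 after rounding), 0 of 8 had an unadjusted p under 0.05, and of all 15599 tested 0 passed and 343 had one.

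Other family genes were followed through a list of 20 IRG, GBP and related genes, of which 4 had a probe set of their own and 3 reached the floor. Gbp7, which lies beside Gbp3 in the table, and Gbp6 passed both tests, and Atl3, an atlastin with a related GTPase domain that shapes the endoplasmic reticulum, passed neither. Gbp7 (1434380_at) read 173 and 4167 in the WT pair, 99.8 and 4751.5 in the Ikbke-/- pair, 111 and 58.9 in the Tbk1-/- pair and 171 and 115 in the pair without either kinase. Gbp6 read 8.24 and 1241, 15.0 and 2518, 6.47 and 2.88, and 27.9 and 66.2 in that order. Both were high on the same 2 arrays as the members. The Tbk1-/- minus Tbk1+/+ difference by limma was -5.18 (adjusted p = 0.00093) for Gbp7 with 1434380_at. With 1425156_at, which reached the floor only on the 2 high arrays and so had to differ, it was -4.06 and limited by the floor. Gbp6 reached the floor only on the 2 high arrays and so had to differ, and its difference of -3.86 is limited by the floor. Gbp8 was under the floor on all 8 arrays.

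The interferon receptor and Jak-Stat list, machinery known to drive these GTPases, had 20 genes with a probe set of their own that reached the floor. The part of that machinery in the response of the members was not tested. By limma, 8 of the 20 rose in cells with Tbk1, against 3.03% of all probe sets, and 6 had a smaller response without Tbk1, against 1.51%, with a list median of -0.64 on the log2 scale. The 6 were Usp18 (-5.60), which removes ISG15 and damps interferon receptor signalling, Irf7 (-4.80), Socs1 (-3.11), a brake on Jak kinases, Stat2 (-2.85), Irf9 (-1.93) and Irf2 (-1.91). Usp18 and Irf2 were under the floor on all arrays without Tbk1, and Irf2 on the WT mock array too, so the floor limits their differences. Jak2 rose in cells with Tbk1, and its difference was -1.40 (limma adjusted p = 0.0689).

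Irf1, a transcription factor known to act on GBP and IRG genes, differed from the members in the pair without either kinase. It read 1299.6 and 5653 in the WT pair, 1406 and 4379 in the Ikbke-/- pair, 1005 and 1044 in the Tbk1-/- pair and 1569 and 4743 in the pair without either kinase. Irf1 was thus 3.02-fold higher after B-DNA in cells that lacked both kinases, where the log2 ratios of the 10 IRG and GBP probe sets lay between -0.89 and 0.19. That rise rests on 1 array for each treatment. In the Tbk1-/- pair the Irf1 ratio was 1.04-fold. With Tbk1, Irf1 rose by 1.88 on the log2 scale (limma adjusted p = 0.0297). Its Tbk1 difference was -1.05 ± 0.46 (SE, limma adjusted p = 0.342). Among the ligands, Ifnb1 read 99.5 and 221 in the WT pair, 55.8 and 194 in the Ikbke-/- pair, 106 and 75.1 in the Tbk1-/- pair and 83.3 and 92.0 in the pair without either kinase, with a Tbk1 difference of -0.76 (limma adjusted p = 0.206). Ifnb1 reached the floor only on the 2 B-DNA arrays with Tbk1, so the size of this difference is limited by the floor. Ifng was under the floor on all 8 arrays, and 0 of 7 T and NK cell markers reached 244 on any of them.

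Irgm1 and its relatives work with the Atg8 conjugation system, which loads them onto vacuoles, and GBP proteins feed the inflammasome. Of 14 autophagy genes that reached the floor, 0 passed by limma in either direction, where 3.03% of all probe sets rose and 1.51% had a smaller response without Tbk1, with a list median of -0.09 for the response with Tbk1 and 0.18 for the Tbk1 difference. Of 4 inflammasome genes that did, 1 passed, Casp4, the caspase that senses cytosolic lipopolysaccharide. Casp4 read 140.0 and 651 in the WT pair, 131 and 946 in the Ikbke-/- pair, 147 and 136 in the Tbk1-/- pair and 104 and 138 in the pair without either kinase. Its response with Tbk1 was 2.53 on the log2 scale (limma adjusted p = 0.000571), and the Tbk1 difference was -2.50 ± 0.24 (SE, limma adjusted p = 0.00525), a smaller shift than in any of the 10 IRG and GBP probe sets.

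**Figure D5:**
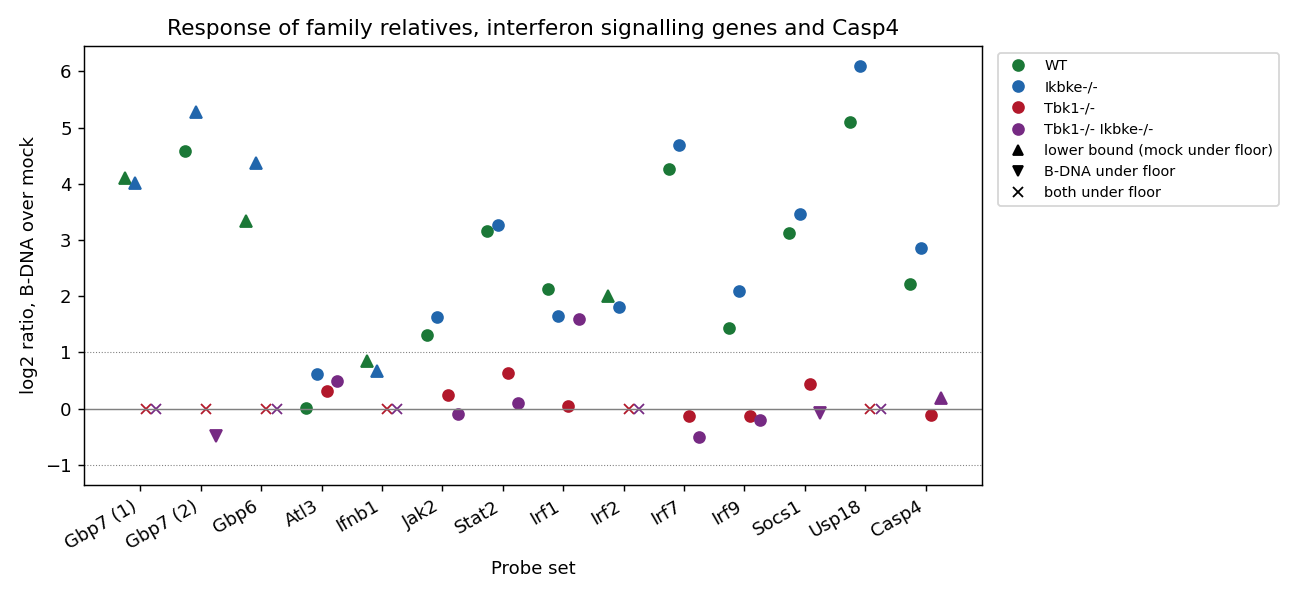
Log2 ratio of the B-DNA over the mock array in each genotype for relatives of the 8 genes, interferon signalling genes and Casp4, with marks as for the 10 IRG and GBP probe sets; (1) and (2) are 1425156_at and 1434380_at for Gbp7. Irf1 is the 1 gene shown that was 2-fold higher in Tbk1-/- Ikbke-/- cells, at 1.60, and Atl3 stayed below 2-fold in every genotype.

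Likeness to the mean log2 pattern of the 8 genes was measured as Pearson's r over the 8 arrays, among the 7593 other genes whose probe set reached 244. The highest were Gbp7 (0.999), Ifit2, Tlr3, Mx1, Mx2 and Oasl2 (each 0.998), and Irf7 and Cmpk2 (each 0.997). This is a description over arrays that split into 2 high and 6 low ones. Tlr3, Mx1, Mx2, Oasl2 and Cmpk2 reached the floor only on the 2 high arrays, so their 6 low values were all set to the floor.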

How the data were processed

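Total RNA of 4 genotypes under 2 treatments was hybridised to 8 Affymetrix arrays, 1 for each combination. The deposited intensity of each probe set is a linear signal that the authors obtained with MAS5, per the submitters' processing notes. Detection calls and any scaling target: not given in the sources used here. Genes were named from a platform annotation that holds these probe sets but is for another array than the design text names. Each array was scaled to a 2% trimmed mean of 500, values under 122 were set to it, and log2 was taken. Tests used limma 3.58.1 in R 4.3.3 (lmFit, eBayes, 2-sided, Benjamini-Hochberg threshold 0.05) over all probe sets that reached the floor. The fit was also run on simulated data, but no floor was applied to those, so that run does not cover floored values. The number of arrays limits the precision. No probe set with several symbols was used to name a gene. Promoter sequences are those of RefSeq, build GRCm38.p6. The comparisons share arrays.

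The members and lists were chosen with earlier results of these data known. Named are all member probe sets, other family genes with a probe set of their own, list members past the Tbk1 test, up to 6 a list, with Ifnb1, Ifng, Irf1 and Irf9 in any case, and the 8 genes most alike in pattern; Jak2 was named after its values were seen, and marker genes only as counts. 1 list gene outside the 8 is not reported here. Alternatives were no further scaling, quantile and median scaling, a floor at the 25th percentile, other filters, 1 probe set a gene, no Ikbke interaction, and leaving out each genotype pair or mock array.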

Additional observations from a re-analysis of the deposited data

Results flagged for a closer look

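The response to B-DNA differed between genotypes with and without Tbk1 for each of the 10 IRG and GBP probe sets, by limma's test of the difference itself. On the log2 scale the Tbk1-/- minus Tbk1+/+ difference was -5.55 for Igtp, -4.17 for Irgm1, -5.33 for Irgm2, -4.43 for Iigp1 with 1419042_at and -6.12 with 1419043_a_at, and -5.41 for Ifi47. It was -5.60 for Gbp2 with 1418240_at and -4.93 with 1435906_x_at, -5.33 for Gbp2b and -4.42 for Gbp3. Iigp1 (1419042_at) and Gbp3 reached the floor only on the 2 B-DNA arrays with Tbk1, so they had to differ and add no support. No group had the 4 arrays that a search for a stray array needs.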

How the results depend on the processing

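The counts of 10 of 10 for the response with Tbk1 and for the Tbk1 difference were both 10 of 10 under no further scaling, quantile scaling, median scaling and the lower floor. With 1 probe set a gene, 8 of 8 passed. With no filter on low probe sets both fell to 0 of 10, with limma adjusted p from 0.211 to 0.421 for the response and from 0.271 to 0.524 for the difference. With only probe sets above the floor on all arrays, 2 were tested, Igtp and Irgm1, and 2 of 2 passed. With each genotype pair left out in turn both counts ranged from 0 to 0, with adjusted p from 0.168 to 0.382 and from 0.267 to 0.502, and the differences kept their sign. The cause was not tested. Leave-one-out and unfiltered fits called 0 probe sets of any gene. With no Ikbke interaction, 9 of 10 differences passed, and Irgm1 did not (limma adjusted p = 0.0596). Over all probe sets, 497 rose and 189 fell with Tbk1, against 343 and 956 with no further scaling (where the median log2 difference of all moved from -0.02 to -0.31, and for the Tbk1 difference from 0.04 to 0.31), 384 and 80 under quantile scaling, 375 and 114 under median scaling, 332 and 51 at the lower floor, and 306 and 53 with no Ikbke interaction. For the Tbk1 difference, 22 were higher and 248 lower, against 14 and 130, 9 and 191, 9 and 168, 6 and 139, and 5 and 119 in that order. With only probe sets above the floor on all arrays the counts were 448 and 403, and 100 and 238. The counts for the response without Tbk1, the Ikbke difference and the mock levels were 0 under every alternative run. Signals under the floor limit 8 of the 10 probe sets.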
